A study of Mus musculus with 15 samples.

Results

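Chylomicrons are the particles that carry absorbed dietary fat from the small intestine into lymph and blood. The 8 genes for their apolipoproteins, assembly and control were followed in all 15 libraries of a mouse ileum RNA-seq series: Apoa1, Apoa4, Apob, Apoc2, Apoc3, Mttp, Sar1b and Creb3l3. They were taken as named genes of the pathway, with earlier results of these data known, and found by matching the Ensembl identifiers of the deposited count tables to mouse symbols. They make up 8 of 37620 identifiers. All 8 were found, passed the filter on low counts and were tested in every comparison.

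The tissue was ileum, the final stretch of small bowel before the colon, from adult mice whose Rfx6 gene, for a transcription factor of hormone-producing cells, carries loxP sites. The animals labelled mutant were Rfx6f/f with Vilin-CreERT2, a tamoxifen-inducible Cre recombinase driven by the Villin promoter, which is active throughout the intestinal epithelium and so not in hormone-producing cells alone. Controls were Rfx6f/f or Rfx6f/+ without Cre, and the labels give tamoxifen (10 mg by gavage, over a 5-day course) for every animal. Tissue was collected after 8 days (3 controls, all Rfx6f/f, and 4 mutants) or after 3 months (4 controls, of which 2 were Rfx6f/f and 2 Rfx6f/+, and 4 mutants). No group carried the recombinase with unfloxed Rfx6, so the deletion and the recombinase cannot be told apart. The labels used here do not give strain, sex or exact age.

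In units of 1000000 counts, the libraries held 30.5 to 54.5 at 8 days and 26.1 to 36.3 at 3 months. Rfx6 itself did not fall in libraries labelled mutant, counted over the whole gene and not over the deleted part alone. Its log2 fold change was 0.19 at 8 days (Benjamini-Hochberg adjusted p 0.867, quasi-likelihood test of edgeR) and 0.72 at 3 months (SE 0.17, adjusted p 0.0347 in edgeR), so the groups are called by their labels throughout. The tissue pieces held enterocyte markers (Vil1, Alpi, Cdh17, Epcam, Krt20, Anpep and Fabp2) at summed levels of 9128 to 15910.4 counts per 1000000 (CPM) in all 15 libraries. The liver markers were low. Alb, the defining one, had 0 to 7 counts per library, F2 had 7 to 44 and Ttr 55 to 197. The whole list of 8 summed to 2.27 to 5.46 CPM. The libraries of mutant replicates 2 and 4 at 8 days stood apart. In them the markers of the upper small intestine (Pdx1, Lct, Gata4 and Onecut2) summed to 4.79 and 9.23 CPM, with 1 of the 4 at 0 counts in each, against 322 to 725 CPM in the other 5 libraries of that time.

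In the enterocyte, apolipoprotein B forms the backbone of the nascent particle while the microsomal triglyceride transfer protein (Mttp) loads lipid onto it in the endoplasmic reticulum. The particle leaves in COPII-coated carriers that need the GTPase Sar1b, and it carries apolipoproteins A-I, A-IV, C-II and C-III on its surface. Apolipoprotein C-II activates lipoprotein lipase in the circulation and C-III inhibits it. Creb3l3 (CREB-H) is a transcription factor anchored in the endoplasmic reticulum and released by cleavage, known in liver and intestine for driving genes of triglyceride handling, among them Apoa4 and Apoc2.

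RefSeq (build GRCm38.p6) gave promoter windows for 7 of the 8 genes, each running from 250 bases before to 50 after an annotated start. Apoc3 is not among them. Of these windows, 3 are shown, because Apoa4 and Apoa1 lie in 1 gene cluster on chromosome 9 whose RNA differed most in response among the cluster's apolipoproteins, and because Creb3l3 was the regulator among the 8. Capitals mark a match to CAAAGTNCA, a half-site of the factor HNF4, searched on both strands. The windows are chr9:46240594-46240893 (plus strand, Apoa4), chr9:46228380-46228679 (plus strand, Apoa1) and chr10:81098823-81099122 (minus strand, Creb3l3, the second of its windows).
Apoa4: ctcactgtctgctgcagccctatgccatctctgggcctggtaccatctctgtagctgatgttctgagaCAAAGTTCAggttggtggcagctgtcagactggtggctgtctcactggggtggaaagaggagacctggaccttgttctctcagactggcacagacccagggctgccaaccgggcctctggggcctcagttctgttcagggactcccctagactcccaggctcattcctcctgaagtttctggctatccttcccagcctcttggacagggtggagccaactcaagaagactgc
Apoa1: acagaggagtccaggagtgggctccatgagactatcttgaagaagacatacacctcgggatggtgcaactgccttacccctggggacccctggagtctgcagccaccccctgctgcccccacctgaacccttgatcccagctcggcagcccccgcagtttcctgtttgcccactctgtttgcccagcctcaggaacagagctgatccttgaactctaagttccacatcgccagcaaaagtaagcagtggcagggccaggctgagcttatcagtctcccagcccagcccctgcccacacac
Creb3l3: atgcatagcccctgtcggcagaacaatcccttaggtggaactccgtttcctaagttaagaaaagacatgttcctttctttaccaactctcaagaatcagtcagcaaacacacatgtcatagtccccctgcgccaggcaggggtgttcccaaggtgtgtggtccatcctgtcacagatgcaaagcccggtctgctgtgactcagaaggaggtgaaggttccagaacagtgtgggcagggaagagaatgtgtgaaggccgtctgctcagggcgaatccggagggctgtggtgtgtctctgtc
The match in the Apoa4 window begins at position -182 from the annotated start. It was the only one among the 7 genes with a window, and 1.41% of 32851 promoter windows of that length hold the motif. The cyclic AMP response core TGACGT (7.51% of windows) occurred in the Mttp window only. The TATA box TATAAA (13.6% of windows) occurred in the Apob window only. CCAAT (37.4% of windows) occurred in the Sar1b window and in the other Creb3l3 window, which is not shown. These are matches of letters, with no measurement of binding behind them.

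After 3 months, 4 of the 8 genes were higher in the libraries labelled mutant and none was lower: Apoa4, Apoc3, Creb3l3 and Apoc2. Apoa4 was 10.7-fold higher, and the other 3 were between 3.27- and 3.58-fold higher. Apoa1, the particle's backbone gene Apob and the transfer protein gene Mttp had smaller positive values that did not pass the test, and Sar1b had a value near 0. Among all 17085 genes tested, 9.28% were called in either direction and 4.96% were called higher. The median log2 fold change was 1.15 over the 8 genes and 0.01 over all genes tested. In 5 of the 8 genes every mutant library lay above every control library, where 9.7% of all genes tested did so. Since the 8 genes were not chosen blind to these data, the shares and medians are a description and not a test of the list.

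Apoa4 encodes apolipoprotein A-IV, a surface apolipoprotein that enterocytes make during fat absorption. At 3 months it stood at 233, 356, 308 and 159 CPM in control replicates 1 to 4, and at 2723, 2096, 2662 and 3845 CPM in mutant replicates 1 to 4. The lowest mutant library lay far above the highest control, and the groups did not overlap. Means were 264 ± 86.1 (SD, n = 4) and 2831 ± 732 CPM (SD, n = 4). On the log2 scale the fold change was 3.42 (SE 0.28, adjusted p 0.000717 in edgeR). The fold change was 10.7, with a 95% interval of 6.87 to 16.7. In bulk tissue, more cells of a type and more RNA per cell cannot be told apart.

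Apoc3, whose product inhibits lipoprotein lipase, was at 26.7, 18.4, 19.5 and 27.0 CPM in the controls and at 90.8, 91.8, 54.5 and 91.5 CPM in the mutants. Mutant replicate 3 was the low one of its group and still lay above all controls. For Apoc3 the log2 fold change was 1.84 (SE 0.20, adjusted p 0.00269 in edgeR), or 3.58-fold with a 95% interval of 2.63 to 4.89. Its call was lost with Rfx6f/f controls only (1.61, edgeR adjusted p 0.0589). Apoc2, whose product activates lipoprotein lipase, was at 22.2, 30.7, 19.4 and 14.4 CPM in the controls and at 108, 39.6, 67.4 and 68.6 CPM in the mutants. Mutant replicate 2 came nearest to the controls, and the groups did not overlap. The log2 fold change of Apoc2 was 1.71 (SE 0.31, adjusted p 0.0173 in edgeR). The Apoc2 call was lost with Rfx6f/f controls only (1.96, edgeR adjusted p 0.126), without control replicate 1 (1.72, edgeR adjusted p 0.0550) and without control replicate 3 (1.66, edgeR adjusted p 0.0577).

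Creb3l3 was at 63.6, 49.9, 62.6 and 63.9 CPM in the controls and at 211, 176, 168 and 245 CPM in the mutants. Every mutant library exceeded every control. Its log2 fold change was 1.74 (SE 0.13, adjusted p 0.000555 in edgeR), the smallest adjusted p of the 8 genes. The proteins that release Creb3l3 by cleavage, Mbtps1 and Mbtps2, were on the list of regulators and neither was called.

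Apoa1, the main protein of high-density lipoprotein and a chylomicron surface protein, was at 2232, 1474, 1866 and 2675 CPM in the controls and at 3369, 3566, 2266 and 3145 CPM in the mutants. Mutant replicate 3 lay below control replicate 4, so the groups overlapped. A log2 fold change of 0.58 (95% interval 0.13 to 1.04) did not pass the edgeR quasi-likelihood test (adjusted p 0.0966). DESeq2 gave 0.58 with an adjusted p of 0.0193, the only 1 of 17 alternatives that passed. Over the 17 the value ran from 0.33 to 0.73.

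Apob was at 5744, 5486, 5722 and 5944 CPM in the controls and at 11116, 8431, 6285 and 7427 CPM in the mutants. The groups did not overlap, and the mutants spread far more than the controls, with a coefficient of variation of 24.8% against 3.27%. This gave a log2 fold change of 0.54 (95% interval 0.16 to 0.92), short of the threshold (edgeR adjusted p 0.0750). It passed in 3 of 17 alternatives. These were DESeq2 (adjusted p 0.00635), the fit of all 15 libraries (edgeR adjusted p 0.0447) and the fit without mutant replicate 3 (edgeR adjusted p 0.0495). With each library left out the value ran from 0.37 to 0.65.

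Mttp was at 723, 757, 747 and 615 CPM in the controls and at 1026, 934, 708 and 831 CPM in the mutants. Its groups overlapped through mutant replicate 3, and the log2 fold change was 0.30 (95% interval 0.02 to 0.58, adjusted p 0.142 in edgeR). Sar1b was at 111, 103, 123 and 115 CPM in the controls and at 115, 113, 101 and 98.4 CPM in the mutants. These values interleaved. Sar1b had a log2 fold change of -0.08 with a 95% interval of -0.25 to 0.09 (edgeR adjusted p 0.504), which leaves out changes as large as those of the C apolipoproteins. Its close paralogue Sar1a, also a COPII GTPase, had a log2 fold change of -0.15 (edgeR adjusted p 0.129).

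**Figure D1:**
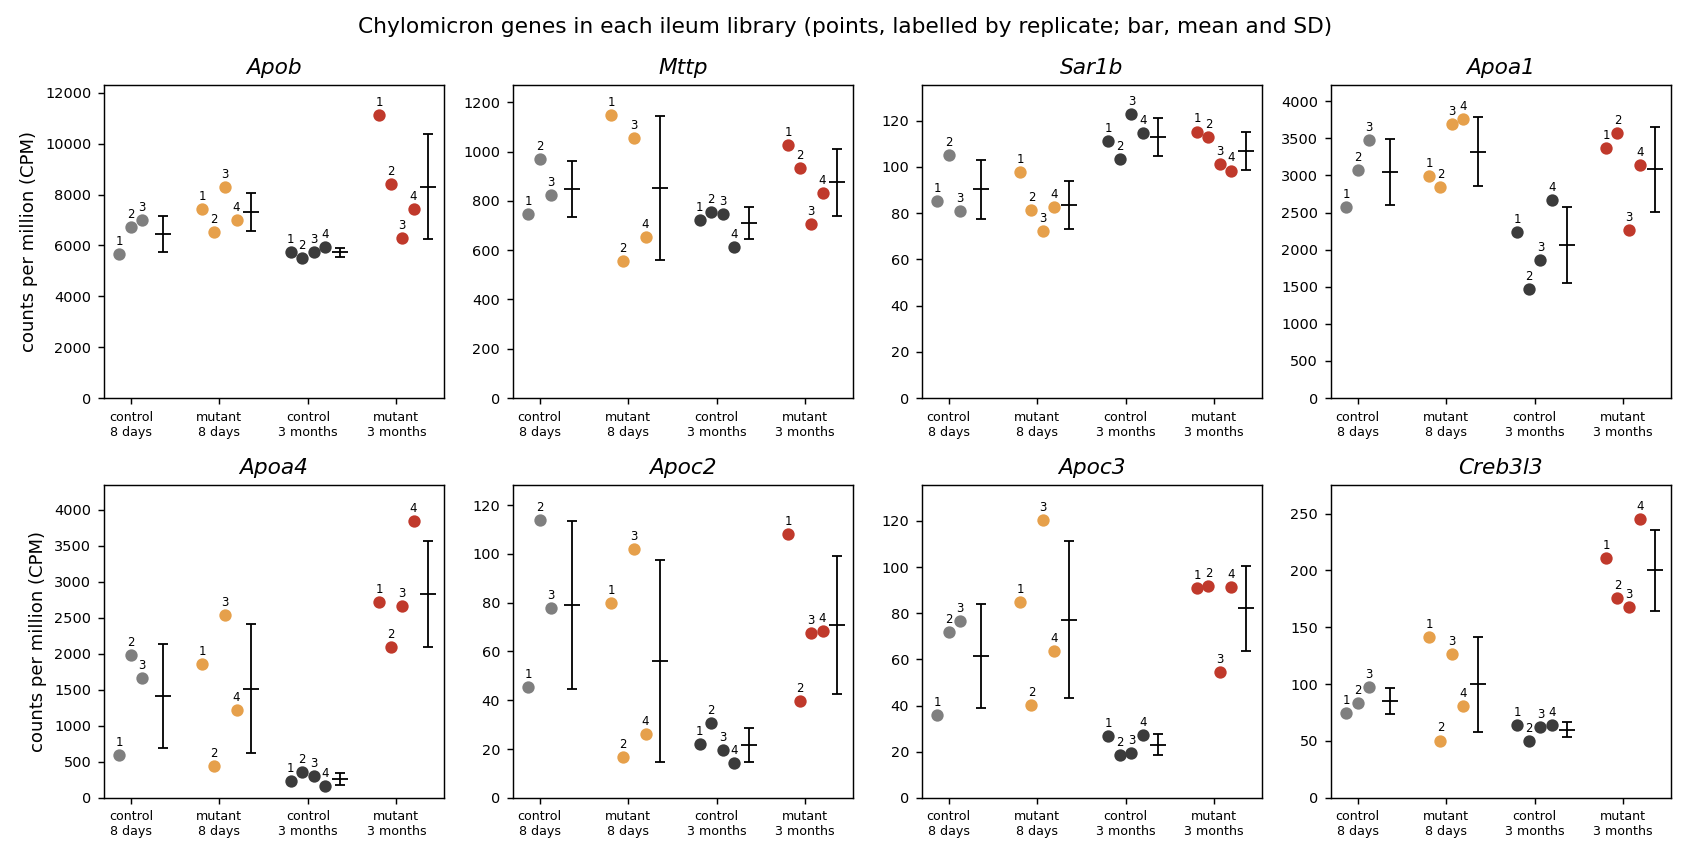
Each panel plots 1 gene, with CPM from 0 on the vertical axis, the 4 groups on the horizontal axis, 1 point per library (number: replicate), and the group mean and SD as a bar. The 3-month mutants of Apoa4 lie between 2096 and 3845 CPM above controls of 159 to 356 CPM, while the 8-day groups overlap in all 8 panels.

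Per kilobase of exon, a rough scale for comparing genes, the order of the levels also differed between the 3-month groups. The length used was that of all annotated exons of a gene, not of the transcripts present. Exon bases shared with other genes, given below, were not taken out. In controls Apoa1 led with 1668 CPM per kb, followed by Apob at 411, Apoa4 at 146, Mttp at 114, Sar1b at 90.0, Apoc2 at 26.6, Apoc3 at 22.6 and Creb3l3 at 19.9. Neighbours in that order whose libraries overlapped were Apoa4 with Mttp, Apoc2 with Apoc3, and Apoc3 with Creb3l3. In mutants Apoa4 was second at 1560 CPM per kb, behind Apoa1 at 2497 and ahead of Apob at 597, and its range overlapped that of Apoa1. Below Mttp (141 CPM per kb) the 4 remaining genes ran from 87.2 (Apoc2) to 66.3 (Creb3l3) and each overlapped its neighbour. Together the 8 genes took 0.847 to 0.968% of all counts in the 3-month controls and 1.27 to 1.78% in the mutants.

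At 8 days no such difference was called. Of the 8 genes, 0 passed the edgeR quasi-likelihood test, where 0.0915% of all genes tested were called, 0 had an unadjusted p under 0.05, and DESeq2 and limma-voom also called 0. The groups overlapped for all 8, and 7.63% of all genes tested had groups that did not overlap in either direction. Apoa4 was at 600.1, 1984 and 1661 CPM in controls 1 to 3 and at 1862, 448, 2535 and 1219.6 CPM in mutants 1 to 4. Each group thus held both low and high libraries. Its log2 fold change was 0.10 (SE 0.55, 95% interval -1.16 to 1.35, adjusted p 0.987 in edgeR), an interval that leaves out the 3-month value.

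The other genes called at 3 months also had overlapping groups at 8 days. Apoc2 was at 45.3, 114 and 77.8 CPM in controls and at 79.9, 16.5, 102 and 26.04 CPM in mutants. Apoc3 was at 35.7, 71.8 and 76.8 CPM in controls and at 84.9, 40.1, 121 and 63.4 CPM in mutants. Creb3l3 was at 74.6, 83.0 and 97.6 CPM in controls and at 141, 50.4, 127 and 80.8 CPM in mutants. For Creb3l3 the mutants fell on both sides of the controls. For Apoc2, mutants 2 and 4 lay below all controls and the other mutants within their range, and for Apoc3, mutants 1 and 3 lay above all controls and the other mutants within their range. The log2 fold changes were -0.49 (SE 0.59) for Apoc2, 0.33 (SE 0.37) for Apoc3 and 0.23 (SE 0.31) for Creb3l3. With each library left out they ran from -0.95 to -0.14, from 0.029 to 0.54 and from 0.013 to 0.45, and none was called.

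The remaining 4 genes had narrower intervals. Apoa1 ranged from 2581 to 3478 CPM in controls and from 2843 to 3757 CPM in mutants, with a log2 fold change of 0.13 (95% interval -0.19 to 0.44). Apob ranged from 5653 to 7005 CPM and from 6530.3 to 8309.6 CPM, with a log2 fold change of 0.18 (95% interval -0.08 to 0.44). Both intervals overlapped those of the same genes at 3 months, 0.13 to 1.04 for Apoa1 and 0.16 to 0.92 for Apob. Mttp had a log2 fold change of 0.01 (95% interval -0.55 to 0.57), with mutants at 1147, 556, 1055 and 654 CPM on either side of controls at 748, 972 and 822 CPM. Sar1b had one of -0.11 (95% interval -0.39 to 0.16).

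The 2 libraries low in upper intestinal markers, mutant replicates 2 and 4, were also the 2 lowest of the 8-day mutants in 6 of the 8 genes, Apoa1 and Sar1b being the exceptions. Lct, which encodes lactase, made up most of that marker sum and ranged from 3.46 to 594 CPM among these mutants. Without both libraries, an alternative chosen after seeing the data, 0 of the 8 genes were called and 3 had an unadjusted p under 0.05. The log2 fold changes were then 0.64 for Apoa4, 0.74 for Apoc3, 0.66 for Creb3l3, 0.38 for Mttp and 0.29 for Apob, and that of Apoc2 turned from -0.49 to 0.20, with edgeR quasi-likelihood adjusted p from 0.330 to 0.986. Only mutants were left out, and they were the 2 lowest of their group in 6 genes. A rise of those 6 values was therefore fixed in advance. Control replicate 1, the lowest 8-day control in the same markers (322 CPM), was kept. The part of the tissue position in these values was not tested.

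Whether the effect itself differed between the time points was tested as an interaction over all 15 libraries. Only Apoa4 passed, where 0.379% of all 17959 genes tested were called higher. Its effect was 3.30 larger on the log2 scale at 3 months than at 8 days (SE 0.66, adjusted p 0.0473 in edgeR). The call lies close to the threshold: it was lost without both low-lactase libraries (2.78, adjusted p 0.114), with Rfx6f/f controls only (3.75, adjusted p 0.156), in limma-voom (3.39, adjusted p 0.0533), with robust empirical Bayes (3.30, adjusted p 0.0553), and in 9 of 15 fits that left out 1 library. Those were each of the 4 controls of 3 months, mutants 1 and 3 of 3 months, controls 2 and 3 of 8 days and mutant 4 of 8 days, with a range over all 15 of 2.98 to 3.68. The other genes called at 3 months did not pass in this fit. Creb3l3 differed by 1.49 (SE 0.35, adjusted p 0.0565), Apoc3 by 1.49 (SE 0.45, adjusted p 0.0998) and Apoc2 by 2.18 (SE 0.72, adjusted p 0.132). Creb3l3 passed in 5 of 24 alternatives: DESeq2 (adjusted p 0.00149), no filter (0.0479), at least 10 counts in every library (0.0499), and without mutant 1 (0.0131) or mutant 2 (0.0492) of 8 days. Apoc3 passed in DESeq2 (adjusted p 0.0325). For Apob (0.34), Apoa1 (0.44), Mttp (0.27) and Sar1b (0.01) the 95% intervals all included 0.

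**Figure D2:**
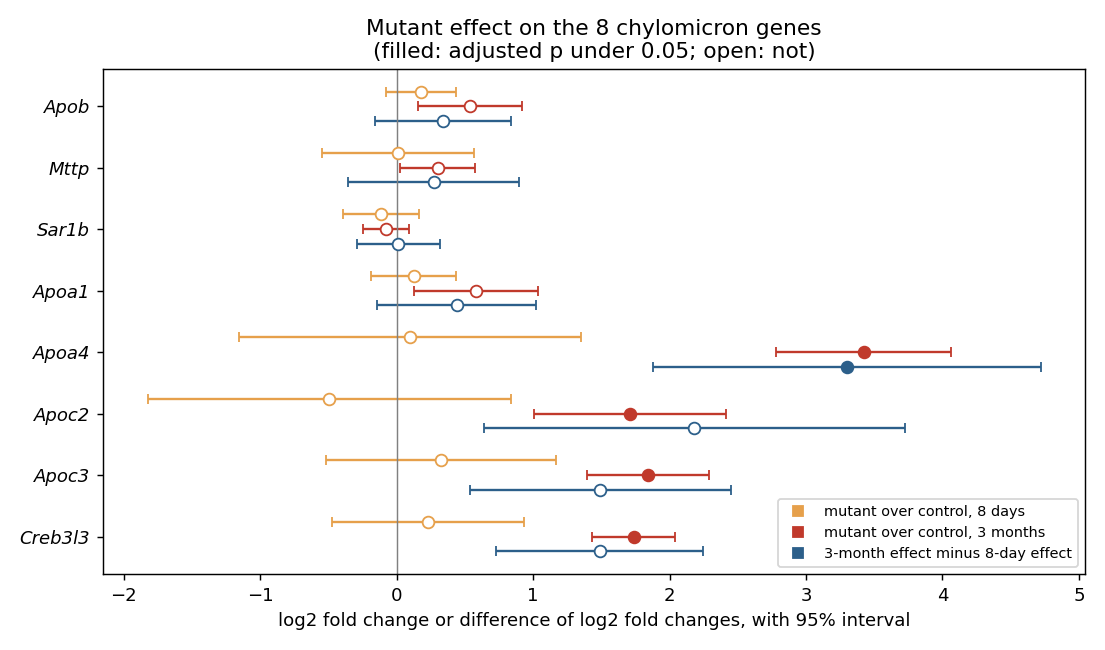
For each gene, points give the log2 fold change of mutant over control at 8 days and at 3 months, and the difference between both effects, on a log2 axis with 95% intervals. Filled points passed an adjusted p of 0.05: Apoa4, Apoc2, Apoc3 and Creb3l3 at 3 months, and Apoa4 for the difference.

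The 2 cohorts were deposited and scaled as separate tables, so time cannot be told apart from cohort and levels across them are only set side by side. The 3-month controls held the lowest mean of the 4 groups for 7 of the 8 genes, Sar1b being the exception. Mean Apoa4 was 264 CPM there, against 1415 ± 724 (SD, n = 3) in 8-day controls, 1516 ± 892 (SD, n = 4) in 8-day mutants and 2831 CPM in 3-month mutants. The ratio of 3-month to 8-day controls was 0.187 for Apoa4, 0.274 for Apoc2, 0.373 for Apoc3 and 0.705 for Creb3l3. The same ratio in the mutants was 1.87, 1.26, 1.06 and 2.004. The 3-month contrast of Apoc2 and Apoc3 set mutants at about the 8-day level against controls below it. For Creb3l3 and Apoa4 the 3-month mutants were also above the 8-day groups in mean. Tissue markers differed between the cohorts too. Upper intestinal markers summed to 19.6 to 50.5 CPM in 3-month controls and 322 to 725 CPM in 8-day controls. In mutants these sums were 33.9 to 57.1 and 4.79 to 640 CPM. Enterocyte markers summed to 10956 to 13446 CPM in 3-month controls and 15178 to 15910 CPM in 8-day controls. The part of tissue makeup in these ratios was not tested.

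Controls at 3 months were of 2 genotypes, compared with each other in a fit of the 8 libraries of that time. Of the 8 genes, 0 passed the edgeR quasi-likelihood test between Rfx6f/+ and Rfx6f/f (0% of 17780 genes were called), 2 had an unadjusted p under 0.05, and DESeq2 called 0 of the 8 among 48 genes in all. These 2 were Apoa4, higher in Rfx6f/+ (356 and 308 against 233 and 159 CPM, log2 difference 0.76), and Apoa1, lower in Rfx6f/+ (1474 and 1866 against 2232 and 2675 CPM, log2 difference -0.56). Both genotypes lay below all 3-month mutants for Apoa4. With the Rfx6f/f controls only, 2 of the 8 genes were called at 3 months, Apoa4 and Creb3l3. That fit called 36 genes in all.

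Apoa1, Apoc3 and Apoa4 lie side by side on chromosome 9, together with Apoa5, which had 0 to 6 counts per library and was not tested. Within this cluster the 3-month log2 fold changes were 0.58, 1.84 and 3.42 in chromosomal order. The neighbours within 150 kb on either side were looked up after these values were seen. Sik3, a kinase gene next to Apoa1, was called higher by 0.30 (SE 0.06, adjusted p 0.0227 in edgeR). Zpr1 (-0.11) and Bud13 (0.12), beyond Apoa5, were not called.

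Gm10680, an antisense transcript that covers 34.8% of the Apoa4 exons, had a log2 fold change of 3.57 (edgeR adjusted p 0.0140) from 0 to 4 counts in the 3-month controls and 18 to 48 in the mutants. Its counts were at most 0.1502% of those of Apoa4 in any library. The strand setting of the counting is not given in the sources used here, and without strand the reads of both genes cannot be told apart. Apoc2 shares 79.5% of its exon bases with an annotated Apoc4-Apoc2 readthrough gene on the same strand, for which no counts were analysed here. Apoc4 itself had 60 counts over all 15 libraries. Mttp shares 7.36% of its exon bases with Trmt10a on the other strand, which had 2819 counts against 437942.

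**Figure D3:**
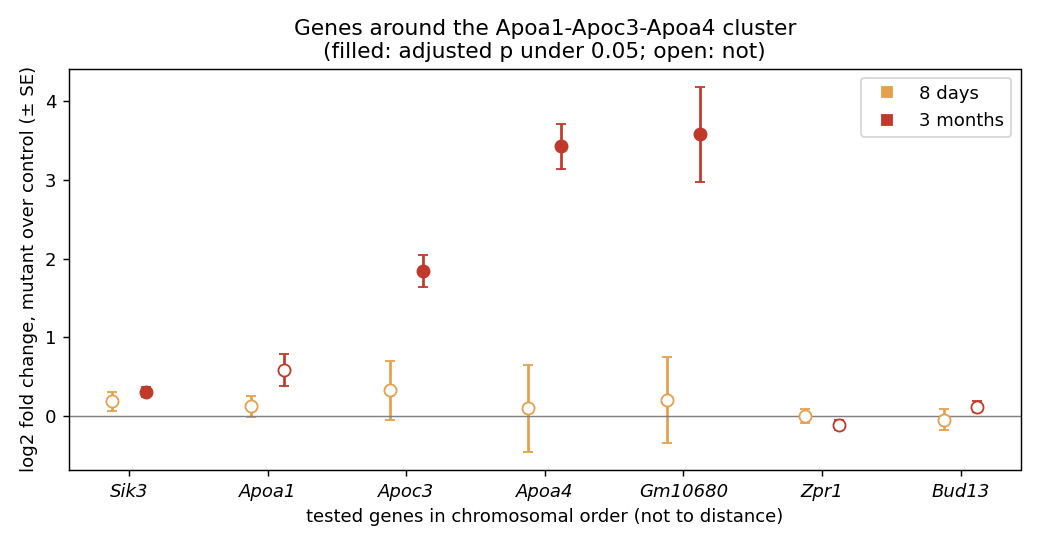
Log2 fold change of mutant over control with its SE for the tested genes around the apolipoprotein cluster, in chromosomal order on the horizontal axis, at 8 days and at 3 months. Values rise from Apoa1 (0.58) over Apoc3 (1.84) to Apoa4 (3.42) at 3 months, and none of the genes was called at 8 days.

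Of the other genes of the pathway, 61 in 4 lists, 53 were tested at 3 months and 4 were called, all higher, beside 9.28% of all genes called in either direction and 4.96% called higher. Of the 25 partners of assembly and secretion, 23 were tested at 3 months and 0 were called, with log2 fold changes from -0.32 to 0.32, a median of -0.00097 and a lowest edgeR adjusted p of 0.0542. Of these, 5 had an unadjusted p under 0.05, DESeq2 called 2 (1 in each direction) and limma-voom 0. These include P4hb, the partner subunit of Mttp, the cargo receptor Surf4, the COPII coat genes and Apobec1, which edits Apob RNA (-0.32, adjusted p 0.0954 in edgeR). Of 9 other apolipoproteins, 3 were tested and 0 called by edgeR, DESeq2 or limma-voom, with 0 at an unadjusted p under 0.05. Apoe, of several lipoprotein classes, ran from 244 to 291 CPM in controls and from 234 to 358 CPM in mutants.

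Of 19 regulators, 1 was called, near the 4.96% of all genes called higher: Ppargc1a, a coactivator of metabolic genes, was higher by 1.09 (SE 0.22, adjusted p 0.0236 in edgeR), from 18.1 ± 2.67 to 38.6 ± 13.6 CPM (SD, n = 4 each). Of the 19, 6 had an unadjusted edgeR p under 0.05, DESeq2 called 4 higher and limma-voom 1. The largest value, 1.37, was that of Gata4, also an upper intestinal marker, and was not called by edgeR. Its means were 2.61 CPM in controls and 6.83 CPM in mutants. The nuclear receptor gene Hnf4a stood at 936 and 924 CPM (log2 fold change -0.02). Of 8 genes of lipoprotein receptors and lipolysis, 3 were called and all were higher, beside the 4.96% of all genes tested that were called higher: the high-density lipoprotein receptor Scarb1 (0.62, adjusted p 0.0239 in edgeR), Vldlr (0.41, adjusted p 0.0324) and Lrp1 (0.45, adjusted p 0.0370). Lpl, the lipase itself, was not called (0.28). Values of this list ran from -1.03 to 0.62. DESeq2 called 3 higher and 1 lower. Lipc, at low counts, went from a mean of 1.31 CPM in controls to 0.647 CPM in mutants. At 8 days 0 of the 54 list genes tested were called by edgeR, with a lowest adjusted p of 0.472, 2 had an unadjusted p under 0.05, and DESeq2 and limma-voom called 0.

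The members also differed in how alike their patterns were. Likeness was measured as the root mean square difference of log2 CPM over the 15 libraries, each centred on the controls of its own table, so that smaller is closer. The closest pairs were Apoa1 with Apob (0.20), Apob with Mttp (0.27) and Apoc3 with Creb3l3 (0.28). Genes that change little are close by this measure whatever their direction. Mttp with Sar1b was at 0.32, with 3-month log2 fold changes of 0.30 and -0.08. Apoa4 was nearest to Apoc3 among the 8, at 0.98. Libraries, and with them depth and tissue makeup, are shared by all these pairs.

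Among 14521 genes, those closest to Apoa4 were Slc2a2 (0.70), which encodes the glucose transporter GLUT2, Mmp9 (0.82), a matrix metalloproteinase, and Rab30 (0.82), a small GTPase. The 3-month log2 fold change of Slc2a2, 4.23, is part of the likeness that chose it and is given as a description. Creb3l3 was closest to Cyp4f16 (0.26), a cytochrome P450, then Apoc3 (0.28) and Cidec (0.29), a lipid droplet protein. Apoc3 was closest to Creb3l3 (0.28), Dao (0.34), a D-amino acid oxidase, and Cda (0.39), a cytidine deaminase. Apoc2 was closest to Leap2 (0.34), Rbp2 (0.43), a retinol-binding protein of enterocytes, and Acot12 (0.45), an acyl-CoA thioesterase.

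Of 4 ileal markers, 2 were lower in the 3-month mutants, where 4.32% of all genes tested were called lower. The markers, Slc10a2, Fabp6, Slc51a and Slc51b, whose products take up, carry and export bile acids, summed to 3192 to 3863 CPM in controls and 1259 to 2089.8 CPM in mutants, without overlap. Of the 4, Fabp6 (-1.44, adjusted p 0.00873 in edgeR) and Slc51b (-0.70, adjusted p 0.00613 in edgeR) were lower and the other 2 were not called. Fabp6 made up most of the sum, with means of 2423 ± 299 CPM in controls and 896 ± 252 CPM in mutants (SD, n = 4 each). Slc10a2 overlapped, at 469 to 604 CPM in controls and 199.8 to 529 CPM in mutants. The upper intestinal markers summed to 19.6 to 50.5 CPM in controls and 33.9 to 57.1 CPM in mutants, which overlap, and 0 of the 3 tested were called by edgeR, with 1 at an unadjusted p under 0.05 and 1 called higher by DESeq2. The part of either list in the rise of Apoa4, Apoc2, Apoc3 and Creb3l3 was not tested.

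Of the 3 T-cell markers, 2 were called at 3 months: Cd3d (-1.06, adjusted p 0.0238 in edgeR) and Cd8a (-1.35, adjusted p 0.0426 in edgeR) were lower in the mutants, where 4.32% of all genes were. The third, Cd3e, had a log2 fold change of -0.68 and was not called (adjusted p 0.151 in edgeR). The list summed to 34.4 to 42.9 CPM in controls and 8.85 to 27.6 CPM in mutants. Of the markers of other cell types, 0 of the B-cell, smooth muscle, adipocyte and pancreatic genes were called by edgeR, DESeq2 or limma-voom, with 2 B-cell genes and 1 smooth muscle gene at an unadjusted edgeR p under 0.05. All 4 B-cell markers had negative log2 fold changes at 3 months (median -1.31), and their sum was 71.7 to 157 CPM in controls and 10.8 to 97.2 CPM in mutants, which overlap. At 8 days all 4 had positive ones (median 2.39), with sums of 12.1 to 35.9 CPM in controls and 15.2 to 196 CPM in mutants. The 4 smooth muscle markers had positive values at 3 months (median 0.35), with sums of 1348 to 1629 CPM in controls and 1470 to 2599 CPM in mutants. The part of these cell types in the changes of the 8 genes was not tested. Enterocyte markers summed to 10956 to 13446 CPM in 3-month controls and 9128 to 13611 CPM in mutants, and 0 of 7 were called by edgeR, with 2 at an unadjusted p under 0.05 and 1 called higher by DESeq2. Pancreatic markers reached 957 CPM in control replicate 4 and 289 CPM in mutant replicate 4 of 3 months. Without that control, all 4 called genes remained called, and the log2 fold change of Apoa4 was 3.24 (edgeR adjusted p 0.00120). Of the 8 liver markers, 2 were tested at 3 months, both with positive values. F2 was called higher (1.20, adjusted p 0.0321 in edgeR), beside the 4.96% of all genes called higher. The liver list summed to 3.15 to 3.69 CPM in controls and 4.19 to 5.46 CPM in mutants, without overlap. Alb stayed at 7 counts or fewer.

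**Figure D4:**
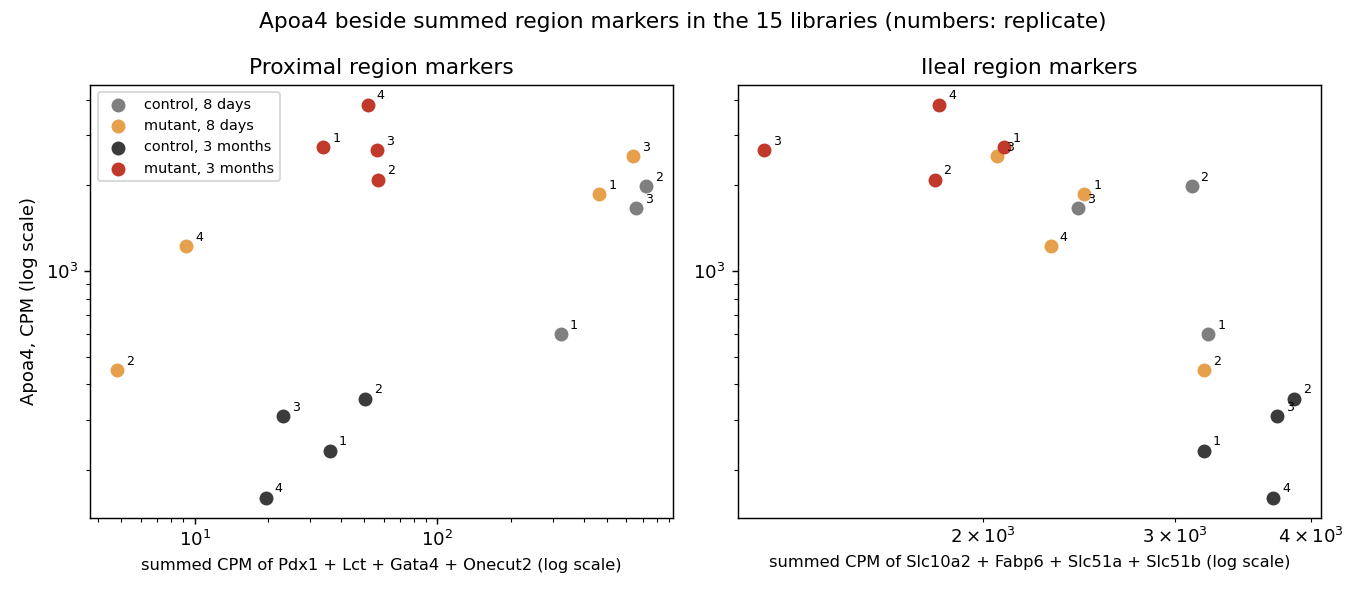
Apoa4 in CPM (vertical, log scale) against the summed CPM of upper intestinal markers (left, log scale) and ileal markers (right, log scale), 1 point per library coloured by group and numbered by replicate. The 3-month mutants lie at 1259 to 2089.8 CPM of ileal markers with Apoa4 of 2096 to 3845 CPM, and the 3-month controls at 3192 to 3863 CPM with Apoa4 of 159 to 356 CPM.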

How the data were processed

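The authors deposited raw counts of reads for each Ensembl gene, in 1 table per time. The submitters' processing notes name bcl2fastq 2.17.1.14, Bowtie 1.0.0, TopHat2 2.0.10, Bowtie2 2.1.0, HTSeq 0.6.1 and mm9. The strand setting is not given in the sources used here. The labels allow 2 RNA extraction methods and name polyadenylated RNA beside a ribosomal depletion kit, without saying which applied to which sample. GENCODE M21 gave symbols, exon lengths and overlaps (87.4% of identifiers matched). Promoters came from RefSeq.

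Each time was fitted with edgeR 4.0.16 (R 4.3.3; filterByExpr, minimum count 10; TMM; quasi-likelihood F test; two-sided), with Benjamini-Hochberg adjustment over all genes tested and a call under 0.05. CPM use TMM-scaled totals. The interaction used all 15 libraries. SE and 95% intervals come from the fits. The calls and log2 fold changes, but not the SE or intervals, were tested on simulated data.

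Alternatives were DESeq2 1.42.0, limma-voom (limma 3.58.1), other scalings and filters, robust empirical Bayes, a joint fit, comparison with Rfx6f/f controls alone, and leaving out each library. Replicates were numbered in deposit order. Counts of any 2 libraries of a group differed beyond sampling error (chi-square per degree of freedom at least 12.1). The labels do not say outright that each library is a separate animal, so p-values measure the spread between libraries. The members, the gene lists and the tests were chosen with earlier results of these data known. Named genes were the members, Rfx6, up to 4 called genes per pathway list, Sar1a, Apoc4, genes sharing exons, and the 3 nearest genes of each called member. Neighbours of the cluster, Apoe, Hnf4a, P4hb, Surf4, Apobec1, Lpl and the marker genes were named beside them. The summed enterocyte list leaves out 1 marker, which is not reported here. Figures were drawn with matplotlib 3.10.9.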

Additional observations from a re-analysis of the deposited data

Results flagged for a closer look

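Among 24 checks of a member in a group of 4, the highest or lowest library stood apart from the others in 2, where a rate of 1 in 20 gives 1.2. Apoc3 was 54.5 CPM in mutant replicate 3 of 3 months against 90.8 to 91.8 CPM in the other 3 libraries. That library also had the lowest Apoa1, Apob, Mttp and Creb3l3 of its group. Creb3l3 was 49.9 CPM in control replicate 2 of 3 months against 62.6 to 63.9 CPM in the other 3. That library also had the lowest Apoa1, Apob, Apoc3 and Sar1b of its group, and the highest Apoa4, Apoc2 and Mttp.

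The effect of the mutant label on Apoa4 passed the test of a difference between the times, in a call that 13 of 24 alternatives lost and in a design where time and cohort cannot be told apart. It was larger by 3.30 on the log2 scale at 3 months in the interaction test (edgeR quasi-likelihood adjusted p 0.0473), with all 4 mutant libraries above all 4 controls at 3 months and overlapping groups at 8 days.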

How the results depend on the processing

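At 3 months, 4 members were called. The count was 2 with Rfx6f/f controls only, 6 with DESeq2 (Apoa1 and Apob added, of 2983 genes called in all) and 5 in the joint fit, and it ran from 3 to 5 with each library left out. Apoa4 and Creb3l3 were called in all 17 alternatives, with adjusted p up to 0.00909 and 0.0248. At 8 days 0 members were called in all 16 alternatives, among them DESeq2, which called 178 genes. For the difference, 1 member was called, and 3 with DESeq2 (Apoa4, Creb3l3 and Apoc3, of 1017 genes), 2 without a filter or with at least 10 counts in every library, and 0 with limma-voom, robust empirical Bayes, Rfx6f/f controls only, or both low-lactase libraries left out. It ran from 0 to 2 with each library left out. Between control genotypes 0 were called in all 11 alternatives. The overall 3-month count of 1586 genes fell to 36 with Rfx6f/f controls only. With each library left out, counts over all genes ran from 391 to 1521 at 3 months, from 8 to 200 at 8 days (16 with all libraries) and from 10 to 749 for the difference (141 with all). The difference had 41 with limma-voom, 223 without a filter, 248 with at least 10 counts in every library, 5 with Rfx6f/f controls only and 14 without both low-lactase libraries. At 8 days there were 27 without a filter and 25 in the joint fit.

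Signs turned only for values that were not called. Mttp at 8 days was -0.049 with limma-voom. Without both low-lactase libraries, Apoc2 at 8 days was 0.20, and the differences of Mttp and Sar1b were -0.084 and -0.00099. With each library left out, the 8-day values ran from -0.27 to 0.42 for Apoa4, from -0.17 to 0.17 for Mttp and from -0.20 to 0.0092 for Sar1b. The Sar1b difference ran from -0.10 to 0.10 and its control genotype value from -0.11 to 0.13. Except where a fit used fewer libraries, the cause was not tested. No paired analysis was possible because no label ties a mutant to a control.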
